A study of Mus musculus with 8 samples.

Results

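This report describes 40 mouse genes of glycolysis and of the response to low oxygen in Tri-PyMT mammary tumour cells. They were listed by role: glucose uptake, each glycolytic step with its isoforms, lactate and pyruvate handling, hypoxia factors and hypoxia targets. The count table has 16647 gene rows and holds 39 of the 40 genes. They are 17 of glycolysis, 6 of lactate and pyruvate handling, 4 hypoxia factors and 12 hypoxia targets. The lactate exporter Slc16a3 was not analysed here. All cells carry MMTV-PyMT, Fsp1-cre and Rosa26mT/mG: an oncogene under a mammary promoter, a Cre recombinase, and a reporter that turns from red (RFP) to green (GFP) where Cre has acted. The Fsp1 (S100a4) promoter that drives Cre is active in fibroblasts and in mesenchymal-like cells. Cells labelled as from a primary metastatic breast tumour were grown in serum-containing medium, and the labels name no low-oxygen treatment. They were sorted by colour into a GFP+ and an RFP+ population and profiled as single cells by Drop-seq, which tags the RNA of each cell with a bead's barcode. Each population has 2 libraries, each on 2 lanes that stand pooled in the table, so n is 2 libraries per population. Whether the libraries of a population are separate cultures is not stated. Between populations, the spread behind each p-value is that between libraries. For the splits of cells within libraries it is what is left between the sides once library is fitted. Either may be technical.

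Glycolysis splits glucose into pyruvate in the cytosol. Hexokinase traps glucose in the cell, phosphofructokinase commits it, and the lower steps from glyceraldehyde phosphate dehydrogenase to pyruvate kinase return ATP and NADH. Pyruvate is then reduced to lactate by lactate dehydrogenase, or enters the mitochondrion and is oxidised by pyruvate dehydrogenase. Many tumour cells make lactate even with oxygen present. HIF-1, a pair of Hif1a and Arnt, is the transcription factor that low oxygen stabilises. With oxygen at hand, prolyl hydroxylases such as Egln1 and Egln3 mark Hif1a for destruction. HIF-1 raises glucose transporters, most glycolytic enzymes, the kinase Pdk1 and genes such as Vegfa, Car9 and Egln3 itself. Hif1a is controlled largely at the protein level, which RNA counts do not show.

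The libraries labelled GFP+ held 2598187 and 2550319 counts from 1597 and 1798 cells, and those labelled RFP+ 3081009 and 2988631 counts from 1998 and 1997 cells. Median counts per cell lay between 1166 and 1358, and no cell barcode was shared by any of the 6 pairs of libraries. Mitochondrially encoded counts made up 0.403% and 0.378% in GFP+ against 0.664% and 0.644% in RFP+ labelled libraries, and their part in the differences between populations was not tested. The reporter rows went against the sort labels. The GFP row stood at 99.7 and 104 CPM (counts divided by the library's total and rescaled) in the libraries labelled GFP+, against 612 and 590 CPM in those labelled RFP+. The RFP row stood at 2943 and 3053 CPM in the libraries labelled GFP+, against 132 and 137 CPM in those labelled RFP+. Every direction below therefore goes by the label. S100a4, the gene whose promoter drives Cre, followed the labels, with 1843 and 2114 CPM in GFP+ against 648 and 676 CPM in RFP+ labelled libraries. So did the epithelial keratin Krt18, at 360 and 374 CPM against 976 and 1020 CPM. Of 9 immune marker genes 6 had a row and 1 of these was at 0, and their summed level was 6.93 to 8.23 CPM in GFP+ and 10.4 to 12.4 CPM in RFP+ labelled libraries. Of 5 endothelial genes 2 had a row, with at most 2 counts per library in all. Of 5 fibroblast genes 4 had a row, and they summed to 9.62 and 7.45 CPM in GFP+ against 2.27 and 2.01 CPM in RFP+ labelled libraries. The part of these other cell types in the results below was not tested.

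The glycolysis and hypoxia genes did not move one way. Of 31 genes with enough counts to test (at least 10 CPM in either population and 20 counts in all), 8 were higher in the libraries labelled GFP+, 7 were lower and 16 did not pass an adjusted p of 0.05 (edgeR quasi-likelihood test, Benjamini-Hochberg over all 7595 tested genes). Of all tested genes 30.5% were called, 15.7% higher and 14.9% lower. The share called was larger among genes with more counts. Of the 16 glycolysis and hypoxia genes with at least 50 CPM in either population 7 were higher and 5 lower, beside 22.7% higher and 21.1% lower (43.8% called) of all tested genes at that level. Of all genes with at least 100 CPM 50.1% were called. The median log2 fold of the 31 tested glycolysis and hypoxia genes was −0.035, beside 0.0024 over all tested genes. The 2 populations did not overlap for 20 of the 31 genes and for 65% of all tested genes. Summed over the 39 genes, the level was 5185 ± 317 CPM in GFP+ and 5196 ± 20.3 CPM in RFP+ labelled libraries (mean ± SD, n = 2 libraries each), a ratio of 0.998.

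**Figure D1:**
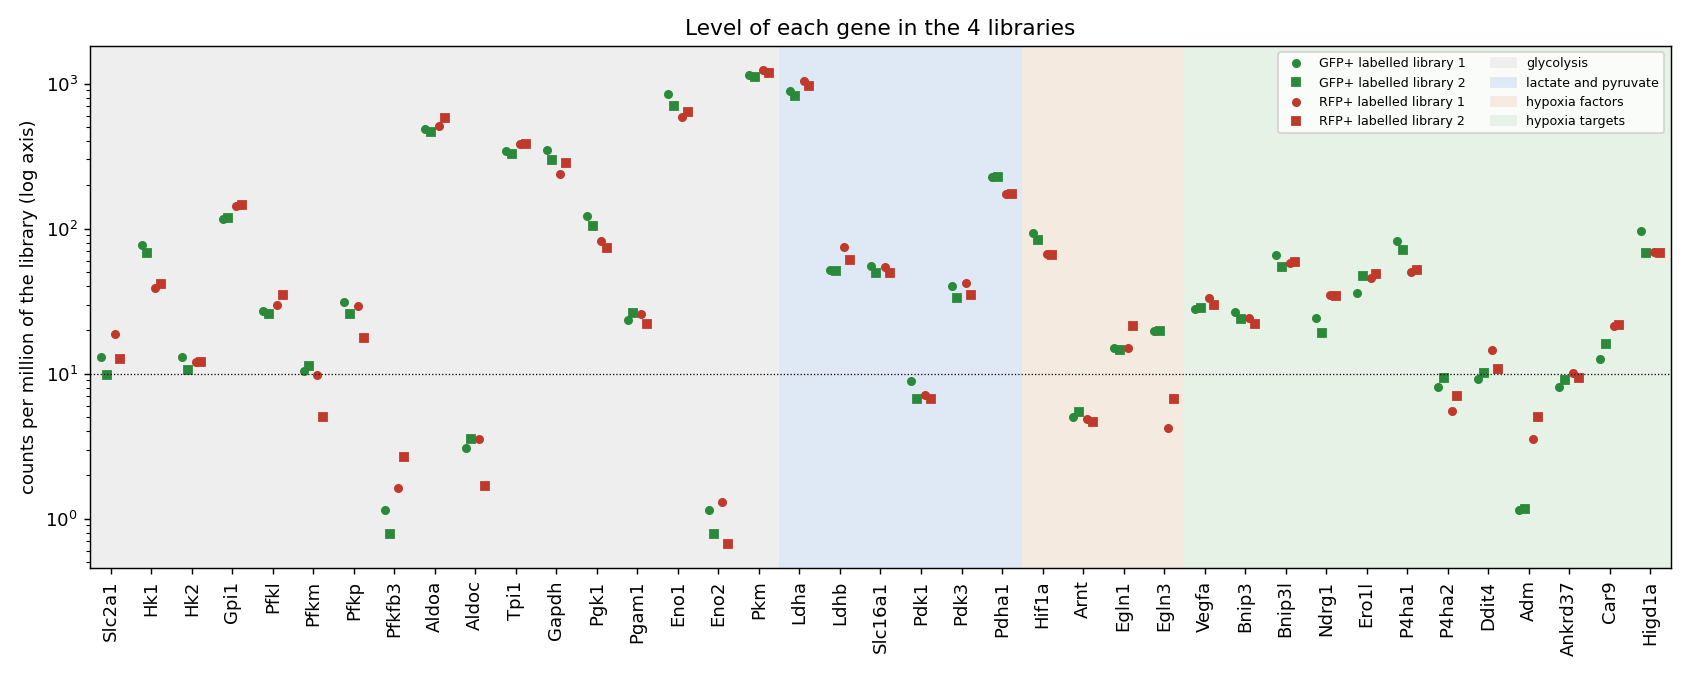
Level of each of the 39 genes in the 4 libraries, in CPM on a log axis, with the GFP+ labelled libraries left of the RFP+ labelled ones for each gene and the background shaded by role. Egln3 shows the widest gap among the tested genes, at 19.6 and 19.6 CPM against 4.22 and 6.69 CPM, while Slc16a1 lies at the same height in both populations.

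At the top of the pathway Hk1 was higher in the libraries labelled GFP+, and neither Hk2 nor the glucose transporter Slc2a1 passed. Hk1 (GRCm38 chromosome 10, 62268855 to 62379908, minus strand), the hexokinase bound to mitochondria in most tissues, had 77.7 and 67.4 CPM in GFP+ against 38.9 and 41.8 CPM in RFP+ labelled libraries. Both GFP+ labelled libraries lay above both RFP+ labelled ones, and the log2 fold was 0.83 ± 0.13 (SE; edgeR adjusted p = 1.46e-06). Hk2, the hexokinase that HIF-1 and growth signals raise in tumours, had 13.1 and 10.6 CPM against 12 and 12 CPM, and its log2 fold of −0.035 ± 0.25 did not pass (adjusted p = 0.931). The glucose transporter Slc2a1 was listed at 13.1 and 9.80 CPM in GFP+ against 18.8 and 12.7 CPM in RFP+ labelled libraries. These ranges overlapped, and its log2 fold of −0.48 ± 0.25 did not pass (adjusted p = 0.153). The SE of both genes is large beside that of Hk1.

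Gpi1, which turns glucose 6-phosphate into fructose 6-phosphate, was lower, with 117 and 118 CPM in GFP+ against 144 and 146 CPM in RFP+ labelled libraries. The libraries of a population lay within a few CPM of each other, and the log2 fold was −0.32 ± 0.083 (edgeR adjusted p = 0.00271). DESeq2 on the same sums did not call it (adjusted p = 0.127). The phosphofructokinase genes did not pass. Pfkl had log2 fold −0.30 ± 0.16, Pfkm 0.54 ± 0.29 and Pfkp 0.25 ± 0.19, with adjusted p of 0.162, 0.166 and 0.327. Library 1 labelled RFP+ decided the outcome for a pair of them. Without it Pfkm stood at 1.09 (edgeR adjusted p = 0.0274) and Pfkp at 0.67 (0.0342). Pfkfb3, which makes the activator of phosphofructokinase, had 3 and 2 counts in GFP+ against 5 and 8 counts in RFP+ labelled libraries and was too low to test.

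The middle steps were lower by small amounts. Aldoa, an aldolase, had 490 and 463 CPM in GFP+ against 510 and 578 CPM in RFP+ labelled libraries. Its groups did not overlap, and the log2 fold was −0.20 ± 0.060 (edgeR adjusted p = 0.00882). Tpi1, which interconverts the products of aldolase, had 343 and 326 CPM against 382 and 383 CPM. Its log2 fold was −0.21 ± 0.061 (adjusted p = 0.00772). Each call was lost when 1 library was left out. Aldoa stood at −0.098 (edgeR adjusted p = 0.319) without library 2 labelled RFP+, and Tpi1 at −0.18 (0.0628) without library 2 labelled GFP+. DESeq2 called neither, with adjusted p of 0.158 for Aldoa and 0.156 for Tpi1. Aldoc, the brain isoform, had 8 and 9 counts in GFP+ against 11 and 5 counts in RFP+ labelled libraries.

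At the next steps Gapdh, which yields NADH, and Pgk1 went the other way. Gapdh had 351 and 295 CPM in GFP+ against 237 and 285 CPM in RFP+ labelled libraries. The lowest GFP+ labelled library stood just above the highest RFP+ labelled one, and the log2 fold was 0.30 ± 0.075 (edgeR adjusted p = 0.00212). That call rested on single libraries. The log2 fold was 0.17 without library 1 labelled GFP+ (adjusted p = 0.121). Leaving out the RFP+ labelled libraries gave 0.17 (0.109) for library 1, and 0.45 for library 2. DESeq2 gave an adjusted p of 0.384. Pgk1 (chromosome X, 106187100 to 106203699, plus strand), the first enzyme of the pathway to make ATP, had 123 and 105 CPM in GFP+ against 82.8 and 73.9 CPM in RFP+ labelled libraries. Its groups were well apart, with a log2 fold of 0.52 ± 0.10 (edgeR adjusted p = 7.65e-05). Pgam1, the mutase between Pgk1 and enolase, had 23.5 and 26.3 CPM against 25.6 and 22.1 CPM, with a log2 fold of 0.044 ± 0.18.

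Eno1 (chromosome 4, 150236721 to 150248879, plus strand), the ubiquitous enolase, had 843 and 700 CPM in GFP+ against 585 and 634 CPM in RFP+ labelled libraries. The libraries of a population differed among themselves, yet the groups did not overlap. The log2 fold was 0.33 ± 0.062 (edgeR adjusted p = 6.03e-05), and 0.19 (0.0190) without library 1 labelled GFP+. Its neuronal isoform Eno2 had 3 and 2 counts in GFP+ against 4 and 2 counts in RFP+ labelled libraries. Pkm, pyruvate kinase, had 1143 and 1102 CPM against 1248 and 1177 CPM. Its groups did not overlap, but the log2 fold of −0.13 ± 0.051 did not pass (adjusted p = 0.0558). Over alternative settings its adjusted p ran from 0.0167 to 0.905. The counts do not tell the spliced forms of Pkm apart.

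**Figure D2:**
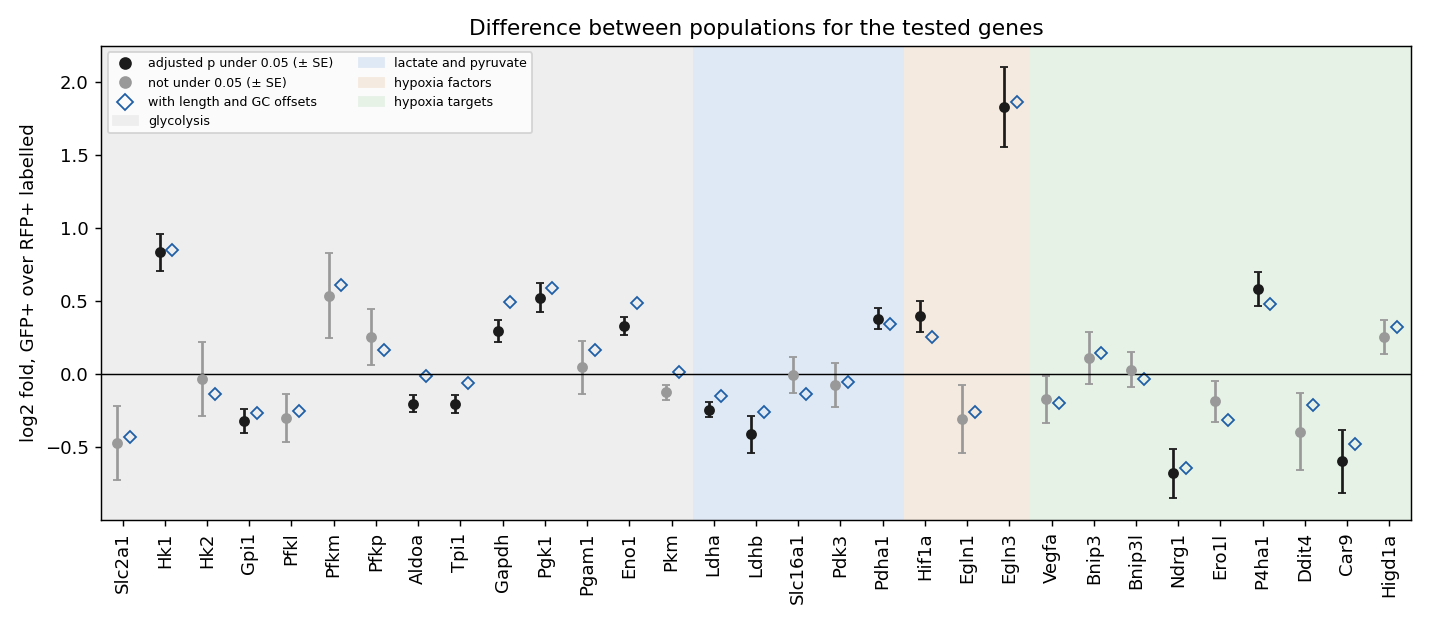
Log2 fold of GFP+ over RFP+ labelled libraries for the 31 tested genes, ordered by role, with bars of ± SE, black points for genes called by edgeR, grey points for the others and open diamonds for the fold with length and GC offsets. Within glycolysis, Hk1, Gapdh, Pgk1 and Eno1 lie above 0 while Gpi1, Aldoa and Tpi1 lie below it.

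Glycolysis thus held 4 genes that were higher, 3 that were lower and 7 not called among 14 tested. Of all tested genes 30.5% were called, and 43.8% of those with at least 50 CPM. The summed level of glycolysis was 3451 ± 226 CPM in GFP+ and 3394 ± 48.1 CPM in RFP+ labelled libraries (SD, n = 2 each), a ratio of 1.02. Transcript length moved with the fold over all genes. In 5 equal bins from the shortest to the longest transcripts, the median log2 fold of all tested genes with a length ran −0.16, −0.080, 0.0061, 0.10 and 0.21. Gapdh, Pgk1 and Eno1 have short transcripts of 1420, 1825 and 2027 bases and were higher, against that trend. Aldoa (1549 bases) and Tpi1 (1607 bases) are short and were lower. With an offset for length and GC content, Aldoa stood at −0.013 (edgeR adjusted p = 0.904) and Tpi1 at −0.065 (0.461). Under the same offset the log2 fold was 0.49 for Gapdh (1.96e-06), 0.59 for Pgk1 (1.58e-05) and 0.49 for Eno1 (3.53e-08). The annotation lists pseudogenes or near copies of Aldoa, Gapdh, Pgk1, Pgam1, Eno1, Ldha and Bnip3l. How reads shared with such copies were counted is not stated, so the levels of these genes are uncertain.

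Of 5 lactate and pyruvate genes tested, Pdha1 was higher, Ldha and Ldhb were lower and 2 were not called. The share called was 30.5% over all tested genes and 43.8% over those with at least 50 CPM. Ldha (chromosome 7, 46841475 to 46855627, plus strand), the subunit that favours making lactate, had 883 and 820 CPM in GFP+ against 1037 and 962 CPM in RFP+ labelled libraries. The groups did not overlap, and the log2 fold was −0.24 ± 0.053 (edgeR adjusted p = 0.000408). It was called under all 14 alternative settings, between −0.29 and −0.15. Ldhb, the subunit that favours the reverse reaction, had 51.6 and 51.4 CPM in GFP+ against 75.0 and 60.9 CPM in RFP+ labelled libraries. Its log2 fold was −0.42 ± 0.12 (edgeR adjusted p = 0.00900), and −0.26 (0.224) without library 1 labelled RFP+. DESeq2 did not call it (adjusted p = 0.210), and with the length and GC offset it stood at −0.26 (edgeR adjusted p = 0.125).

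Pdha1 (chromosome X, 160122209 to 160138413, minus strand), a catalytic subunit of pyruvate dehydrogenase, had 227 and 226 CPM in GFP+ against 173 and 173 CPM in RFP+ labelled libraries. Replicate libraries were nearly equal and the populations were clearly apart, with a log2 fold of 0.38 ± 0.071 (edgeR adjusted p = 5.76e-05). The kinases that switch this enzyme off did not pass or were too low. Pdk3 had 40.4 and 33.3 CPM in GFP+ against 42.2 and 34.8 CPM in RFP+ labelled libraries (log2 fold −0.076 ± 0.15, adjusted p = 0.729). Pdk1, the kinase that HIF-1 induces, had 23 and 17 counts against 22 and 20 counts. The lactate transporter Slc16a1 had 55.4 and 49.8 CPM in GFP+ against 54.9 and 49.9 CPM in RFP+ labelled libraries, with a log2 fold of −0.0067 ± 0.13. The 6 genes together summed to 1227 ± 56.1 CPM in GFP+ and 1338 ± 71.8 CPM in RFP+ labelled libraries (SD, n = 2 each), a ratio of 0.917.

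Among the hypoxia factors the prolyl hydroxylase Egln3 (chromosome 12, 54178981 to 54203860, minus strand) had the largest log2 fold. It had 51 and 50 counts in GFP+ against 13 and 20 counts in RFP+ labelled libraries, which is 19.6 and 19.6 CPM against 4.22 and 6.69 CPM. Both GFP+ labelled libraries were far above both RFP+ labelled ones, and the level was 3.55-fold higher (log2 fold 1.83 ± 0.27, edgeR adjusted p = 1.23e-06). This was the largest log2 fold among the 31 tested genes. Egln3 met the CPM needed for testing in the GFP+ labelled libraries only. Its entry to the test thus depended on the difference that was tested. With no filter on CPM its log2 fold was 1.83 (edgeR adjusted p = 6.13e-07). Egln3 did not reach the filter of 50 CPM, and its log2 fold lay between 1.53 and 2.20 under the other alternative settings. Egln1, the main oxygen sensor of the family, had 15.0 and 14.5 CPM in GFP+ against 14.9 and 21.4 CPM in RFP+ labelled libraries, and did not pass (log2 fold −0.31 ± 0.23, adjusted p = 0.325).

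Hif1a had 92.8 and 83.5 CPM in GFP+ against 66.9 and 65.9 CPM in RFP+ labelled libraries. Its groups did not overlap, and the log2 fold was 0.40 ± 0.11 (edgeR adjusted p = 0.00391). The call was lost without library 1 labelled GFP+ (0.32, adjusted p = 0.0726), in cells thinned to 1000 counts (0.22, 0.306), with the length and GC offset (0.25, 0.0758) and in DESeq2 (0.160). Its partner Arnt had 13 and 14 counts in GFP+ against 15 and 14 counts in RFP+ labelled libraries and was not tested. The 4 factors summed to 128 ± 6.56 CPM in GFP+ and 94.8 ± 5.54 CPM in RFP+ labelled libraries (SD, n = 2 each), a ratio of 1.35.

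Of 9 hypoxia targets tested, 1 was higher, 2 were lower and 6 were not called, a share called near the 30.5% of all tested genes. Their median log2 fold was −0.17. P4ha1, which hydroxylates collagen prolines, had 82.8 and 71.4 CPM in GFP+ against 50 and 51.9 CPM in RFP+ labelled libraries. Its groups were apart, with a log2 fold of 0.58 ± 0.12 (edgeR adjusted p = 0.000155), and in thinned cells it stood at 0.36 (0.107). Its paralogue P4ha2 had 21 and 24 counts in GFP+ against 17 and 21 counts in RFP+ labelled libraries.

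Ndrg1, a gene that stress and low oxygen induce, was lower, with 24.2 and 19.2 CPM in GFP+ against 35.1 and 34.1 CPM in RFP+ labelled libraries. The groups did not overlap, and the log2 fold was −0.68 ± 0.17 (edgeR adjusted p = 0.00190). It was not called in thinned cells (−0.60, adjusted p = 0.0652) or by DESeq2 (0.118). Car9, the cell-surface carbonic anhydrase that is a standard marker of HIF-1 activity, had 12.7 and 16.1 CPM in GFP+ against 21.4 and 21.7 CPM in RFP+ labelled libraries. Its log2 fold was −0.60 ± 0.22 (edgeR adjusted p = 0.0321). That call was lost without library 1 labelled GFP+ (−0.43, adjusted p = 0.244), when RFP+ library 1 was left out (−0.61, 0.0966), when RFP+ library 2 was (−0.57, 0.119), with the length and GC offset (−0.48, 0.104) and in DESeq2 (0.335).

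The classical target Vegfa, which drives vessel growth, had 28.1 and 28.2 CPM in GFP+ against 33.1 and 29.8 CPM in RFP+ labelled libraries, with a log2 fold of −0.17 ± 0.16. The mitophagy genes Bnip3 and Bnip3l had log2 folds of 0.11 ± 0.18 and 0.029 ± 0.12. Ero1l, an oxidase of the endoplasmic reticulum, stood at −0.19 ± 0.14 and Ddit4, an inhibitor of mTORC1, at −0.40 ± 0.26. None of these passed. Higd1a, a small mitochondrial protein, had 96.6 and 68.2 CPM in GFP+ against 69.1 and 67.9 CPM in RFP+ labelled libraries. The groups overlapped through library 2 labelled GFP+, and the log2 fold of 0.25 ± 0.12 did not pass (edgeR adjusted p = 0.101). Without that library it was 0.47 (0.00292). Adm, which encodes the vasodilator adrenomedullin, was too low to test, with 3 and 3 counts in GFP+ against 11 and 15 counts in RFP+ labelled libraries. With no filter on low counts its log2 fold was −1.85 (edgeR adjusted p = 0.0152). Ankrd37 had 21 and 23 counts in GFP+ against 31 and 28 counts in RFP+ labelled libraries. The 12 targets summed to 379 ± 28.8 CPM in GFP+ and 369 ± 2.08 CPM in RFP+ labelled libraries (SD, n = 2 each), a ratio of 1.03.

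HIF-1 binds DNA at a short core that reads ACGTG in one form. The other form that was searched for reads GCGTG. Promoters from 250 bases before to 50 after the start were taken from RefSeq on GRCm38.p6 and searched on both strands. The first form is also part of the E-box CACGTG, which other factors bind. The table held 38 of the listed genes with 52 promoters, and 43 of them (82.7%) held a core, against 43.8% of all 32851 promoters. All promoters include those of genes without a row among the counts. Promoters of the same gene, as for Eno1, can overlap. The sets were not matched for expression or base composition, and the gap was not tested. A core stood in 10 of 11 promoters of the genes that were higher, 6 of 9 of those that were lower and 17 of 20 of those not called. The promoters shown are of the called genes with the largest log2 folds that the table holds. They show that genes that moved in opposite directions, such as Egln3 and Car9, both carry a core. Capitals mark each core, sequences run 5′ to 3′ on the gene's strand, and a match is a description and not a binding site.
Egln3 chr12:54203825-54204124, minus strand: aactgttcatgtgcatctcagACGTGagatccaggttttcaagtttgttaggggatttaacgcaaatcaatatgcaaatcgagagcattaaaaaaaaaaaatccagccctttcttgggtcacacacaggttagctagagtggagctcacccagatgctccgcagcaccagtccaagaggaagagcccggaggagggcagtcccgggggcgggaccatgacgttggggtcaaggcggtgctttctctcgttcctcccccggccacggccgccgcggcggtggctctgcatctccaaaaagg
Hk1 first promoter chr10:62379859-62380158, minus strand: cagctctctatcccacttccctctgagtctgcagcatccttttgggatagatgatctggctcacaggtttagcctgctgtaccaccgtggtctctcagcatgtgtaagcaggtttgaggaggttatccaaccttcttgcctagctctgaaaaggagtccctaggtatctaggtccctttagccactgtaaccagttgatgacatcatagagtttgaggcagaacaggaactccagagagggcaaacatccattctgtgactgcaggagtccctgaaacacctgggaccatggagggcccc
Hk1 second promoter chr10:62340372-62340671, minus strand: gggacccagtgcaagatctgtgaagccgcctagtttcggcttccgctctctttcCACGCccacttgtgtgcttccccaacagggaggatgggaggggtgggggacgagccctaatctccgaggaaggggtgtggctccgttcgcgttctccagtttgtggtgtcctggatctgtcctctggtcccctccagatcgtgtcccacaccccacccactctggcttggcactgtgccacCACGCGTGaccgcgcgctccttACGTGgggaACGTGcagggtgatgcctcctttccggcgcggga
Car9 chr4:43506776-43507075, plus strand: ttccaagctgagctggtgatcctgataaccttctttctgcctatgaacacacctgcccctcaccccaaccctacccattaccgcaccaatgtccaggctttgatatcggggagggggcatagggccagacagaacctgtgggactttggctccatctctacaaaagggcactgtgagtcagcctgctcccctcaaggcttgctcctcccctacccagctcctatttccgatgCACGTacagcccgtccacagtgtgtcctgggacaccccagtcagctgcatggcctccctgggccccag
P4ha1 chr10:59323046-59323345, plus strand: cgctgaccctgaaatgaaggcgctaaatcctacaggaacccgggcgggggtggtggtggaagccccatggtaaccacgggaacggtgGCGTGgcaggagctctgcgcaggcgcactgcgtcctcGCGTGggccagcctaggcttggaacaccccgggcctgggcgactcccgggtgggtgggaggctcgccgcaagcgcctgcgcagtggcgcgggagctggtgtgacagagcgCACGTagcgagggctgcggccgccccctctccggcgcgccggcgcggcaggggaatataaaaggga
Pgk1 chrX:106186850-106187149, plus strand: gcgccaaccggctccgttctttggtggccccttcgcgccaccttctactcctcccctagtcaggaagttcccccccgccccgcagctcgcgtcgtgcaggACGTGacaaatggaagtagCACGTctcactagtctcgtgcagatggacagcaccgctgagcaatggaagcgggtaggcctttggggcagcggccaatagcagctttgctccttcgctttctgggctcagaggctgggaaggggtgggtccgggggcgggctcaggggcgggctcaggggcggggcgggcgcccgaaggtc

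Egln3 and Car9 held 1 core each, Pgk1 2 and P4ha1 3. Hk1 has a pair of promoters that differ: the first held 0 and the second 5. The counts do not tell which of the Hk1 promoters was used.

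The shares of isoforms in the counts of a step are given as a description, with no test. Hk2 gave 14.4% and 13.6% of the hexokinase counts in GFP+ labelled libraries (95% Clopper-Pearson intervals 10.2% to 19.6% and 9.14% to 19.1%). In RFP+ labelled libraries it gave 23.6% and 22.4%. The 4 shares did not overlap between populations, though their counting intervals did. Egln3 gave 56.7% and 57.5% of the Egln1 and Egln3 counts in GFP+ against 22.0% and 23.8% in RFP+ labelled libraries; these are shares of counts and are not corrected for length. Ldhb gave 5.52% and 5.89% of lactate dehydrogenase counts in GFP+ against 6.74% and 5.95% in RFP+ labelled libraries, a small gap. Pfkl gave 39.3% and 41.0% of phosphofructokinase counts in GFP+ against 43.2% and 60.5% in RFP+ labelled libraries, with the RFP+ labelled ones far from each other. The intervals cover counting error only.

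**Figure D3:**
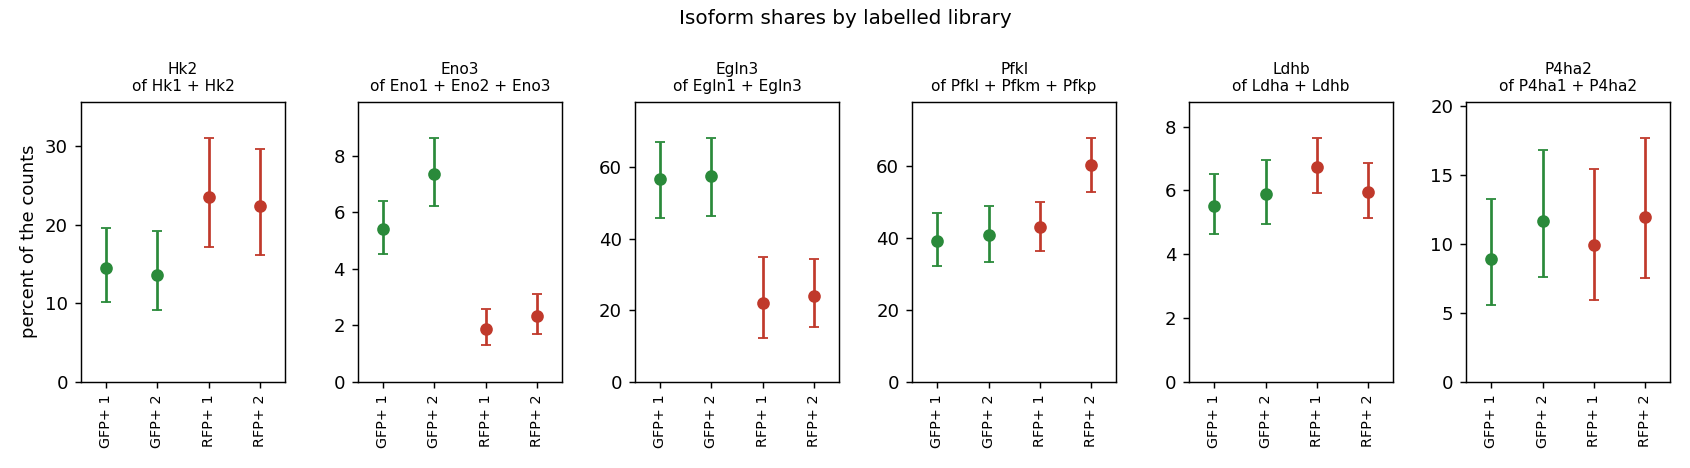
Share of the counts of a step that came from the named isoform, in percent, in each library, with GFP+ labelled libraries on the left and bars of exact 95% intervals for counting error. Egln3 takes 56.7% and 57.5% in the GFP+ labelled libraries against 22.0% and 23.8% in the RFP+ labelled ones.

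Other genes of the same pathways were read from lists. Of 37 other glycolysis and pyruvate genes 15 were tested, and 3 were higher and 5 lower. Over all tested genes 15.7% were higher and 14.9% lower. Eno3, the muscle enolase, had 48.1 and 55.7 CPM in GFP+ against 11 and 15.1 CPM in RFP+ labelled libraries. Its groups were far apart, with a log2 fold of 1.98 ± 0.18 (edgeR adjusted p = 6.93e-12). Eno3 made up 5.39% and 7.36% of the counts of Eno1, Eno2 and Eno3 in GFP+ against 1.85% and 2.32% in RFP+ labelled libraries.

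Of 8 pentose phosphate genes, which branch from glucose 6-phosphate to NADPH and ribose, 7 were tested, and 0 were higher and 4 lower. Of all tested genes 14.9% were lower, and 21.1% of those with at least 50 CPM, a level that most of the 7 reached. The summed level of the pentose phosphate genes had a ratio of 0.853. Taldo1, the transaldolase that links this branch back to glycolysis, had 247 and 260 CPM in GFP+ against 309 and 309 CPM in RFP+ labelled libraries (log2 fold −0.30, edgeR adjusted p = 0.000377). With the length and GC offset it stood at −0.14 (0.112). The calls of the transketolase Tkt (log2 fold −0.30, adjusted p = 0.0323) and of Pgls (−0.24, 0.00703) were lost under that offset too, at −0.26 (0.0801) and 0.0017 (0.99). Tkt stood at −0.16 (0.401) when GFP+ library 2 was left out, at −0.26 (0.139) when RFP+ library 1 was, and at −0.46 (0.00756) when GFP+ library 1 was. Of 13 other HIF regulators 9 were tested, with 1 higher and 1 lower, beside 30.5% called of all tested genes. Cited2, a HIF target that competes with HIF for its coactivators, had 201 and 190 CPM in GFP+ against 264 and 271 CPM in RFP+ labelled libraries (log2 fold −0.47, adjusted p = 8.65e-07). Of 48 other hypoxia targets 25 were tested, with 4 higher and 5 lower, beside 15.7% higher and 14.9% lower of all tested genes. Rbpj, the DNA-binding factor of Notch signalling, had 173 and 180 CPM in GFP+ against 91.5 and 117 CPM in RFP+ labelled libraries (log2 fold 0.75 ± 0.090, edgeR adjusted p = 1.46e-08), and was called under all 14 alternative settings. The cytokine Mif had 851 and 890 CPM in GFP+ against 1059 and 1236 CPM in RFP+ labelled libraries (log2 fold −0.41, adjusted p = 4.18e-07), and with the offset −0.12 (0.0883).

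The genes were also read as shares of cells with a count. Thinned to 1000 counts per cell, Hk1 was seen in 7.61% and 5.92% of cells in GFP+ labelled libraries (exact intervals 6.29% to 9.12% and 4.67% to 7.39%). In RFP+ labelled libraries it was seen in 3.37% and 3.30% (2.52% to 4.39% and 2.44% to 4.37%). The intervals of the populations did not meet, but they cover counting error over cells only and not the spread between libraries. No test was made. Without thinning the shares were 11% and 8.68% against 5.56% and 5.76%. Egln3 was seen in 1.55% and 2.03% of thinned cells in GFP+ against 0.388% and 0.632% in RFP+ labelled libraries. At such levels a cell without a count may still express the gene, so these are shares of cells with a count and not of expressing cells. Ldha was seen in 55.2% and 55.4% of thinned cells in GFP+ against 63.8% and 60.0% in RFP+ labelled libraries. Eno1 was seen in 57.9% and 48.8% against 41.7% and 47.9%, so that library 2 of each label lay close together. No cell type here should lack these genes, so no share of free RNA could be set beside them.

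The abundant genes had a variance between cells close to their mean. For the 16 genes with at least 50 CPM, the variance of thinned counts over their mean had library medians of 1.02 and 1.05 in GFP+ and 1.05 and 1.05 in RFP+ labelled libraries. All 3496 genes at that level had medians of 1.04 to 1.05. Summed enzyme counts were set beside the summed counts of the hypoxia targets with Egln1 and Egln3 added. Across cells within a library, Spearman's rho was 0.026 and 0.040 in GFP+ and 0.002 and 0.032 in RFP+ labelled libraries. This is a weak relation in sparse counts.

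Cells were then split within each library by whether a hypoxia target count was present. The targets of this split were the 12 hypoxia targets with Egln1 and Egln3 added. The enzymes and other genes outside that target list were compared. Such a count was present in 33.9% and 32.2% of thinned cells in GFP+ and 30.1% and 33.7% in RFP+ labelled libraries. No glycolysis, lactate or pyruvate gene passed in either direction, nor did Hif1a, the only hypoxia factor tested (0 of 20 by edgeR and 0 by DESeq2). Of all 7526 tested genes 0.0133% passed. At an unadjusted p under 0.05 there were 3 of the 20 genes, and 359 of all tested genes. They were Slc2a1 (log2 fold 0.84 ± 0.35), Gpi1 (0.24 ± 0.12) and Eno1 (0.11 ± 0.051), all with an adjusted p of 0.971. Between cells with at least 2 target counts and cells with none, they stood at 0.21 ± 0.80, 0.093 ± 0.23 and 0.075 ± 0.096. There Ldha had the smallest p of the listed genes and went the other way (−0.29 ± 0.091, edgeR adjusted p = 0.480). Of the cells in each population most had no target count after thinning. Before thinning, cells on that side still held target counts. In GFP+ library 1 Higd1a had 180 counts in cells with a target count and 60 in those without, and P4ha1 137 and 60. The sides were thus mixed, which limits what this split can show.

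A split by epithelial against mesenchymal genes within libraries asked whether the genes followed that axis among cells of one label. The lists held 18 epithelial genes, such as Krt18 and Epcam, and 16 mesenchymal genes, such as Vim and S100a4. Without thinning, Lgals1 gave 13406 of 30780 mesenchymal counts in GFP+ library 1 and 17520 of 28283 in RFP+ library 1. Lgals1 was not called between the populations (log2 fold −0.11, edgeR adjusted p = 0.0681), which limits what the axis shares with the labels. In this split 0 of 31 genes were called by edgeR and 0 by DESeq2. Of all 7523 tested genes 1.82% were called by edgeR, 0.784% higher and 1.04% lower. At an unadjusted p under 0.05 there were 2 of the 31 genes (6.45%), beside 11.4% of all tested genes. All genes called by DESeq2 were 2 higher and 5 lower. Car9 was the nearest, lower in the mesenchymal cells by −0.91 ± 0.30 on the log2 scale (edgeR adjusted p = 0.0864). Within GFP+ labelled libraries the log2 fold was −0.46 ± 0.49, against −1.16 ± 0.37 within RFP+ labelled ones, and the difference did not pass (adjusted p = 0.950). Its counts in the mesenchymal and epithelial cells, without thinning, were 11 and 20, and 10 and 24, in GFP+ labelled libraries. In RFP+ labelled libraries they were 13 and 47, and 19 and 41. In the thinned cells that the fit used they were 9 and 10, and 6 and 11, in GFP+ labelled libraries. In RFP+ labelled libraries the thinned counts were 7 and 26, and 15 and 24. The mesenchymal cells had fewer Car9 counts in all 4 libraries, but after thinning GFP+ library 1 was nearly equal. When RFP+ library 1 was left out, the log2 fold was −0.57 (adjusted p = 0.654). Ero1l, at −0.43 ± 0.19, was also at an unadjusted p under 0.05. Of genes called between the populations, the log2 fold along this axis was 0.018 ± 0.17 for Hk1, 0.51 ± 0.38 for Egln3 and −0.013 ± 0.052 for Eno1. None of these passed.

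**Figure D4:**
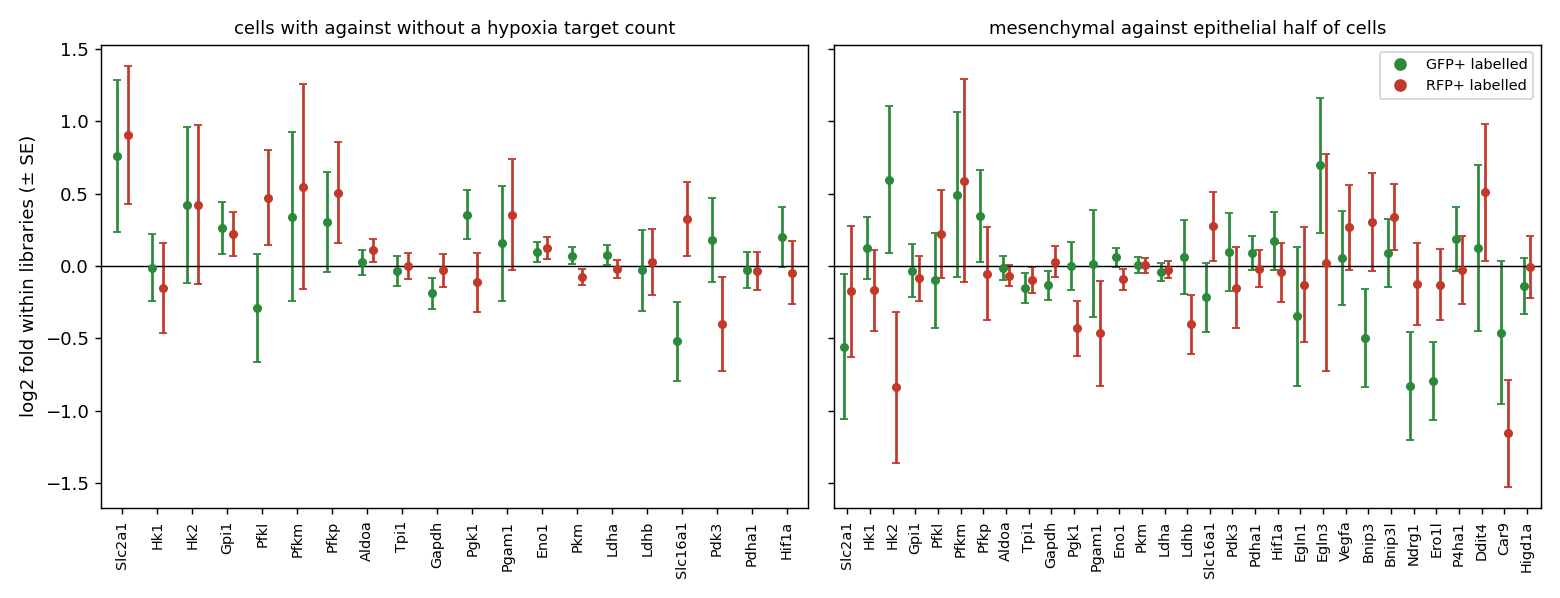
Log2 fold within libraries (± SE) of the genes in the split by hypoxia target counts and in the split from epithelial to mesenchymal cells, with GFP+ labelled libraries plotted left of RFP+ labelled ones. Most points lie near 0, and Car9 lies at −0.46 in GFP+ and −1.16 in RFP+ labelled libraries in the epithelial to mesenchymal split.

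A split by mitotic gene counts gave 0 of 33 genes called by edgeR and 0 by DESeq2. Of all 7872 tested genes 0.61% were called by edgeR. At an unadjusted p under 0.05 there were 3 of the 33 genes (9.09%), beside 8.89% of all tested genes. Few cells lacked mitotic counts, so the cells with the most were also compared with those with the fewest (the upper against the lower part of 3), a choice made after seeing the data. In that comparison 0 of 31 genes passed, against 3.05% of all 7576 tested genes called by edgeR, 1.6% higher and 1.45% lower. At an unadjusted p under 0.05 there were 5 of the 31 genes (16.1%), beside 12.1% of all tested genes. The 5 were Bnip3l at −0.55 ± 0.20 (adjusted p = 0.140), Aldoa at −0.19 ± 0.069 (0.134), Pkm at −0.12 ± 0.047 (0.157), Ldha at −0.13 ± 0.053 (0.191) and Ndrg1 at −0.55 ± 0.28 (0.407). DESeq2 was not run on it.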

How the data were processed

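The deposited table holds counts per gene and cell, which the authors made from Drop-seq reads on GRCm38, per the submitters' processing notes. The largest value is 342, and all are whole. Aligner, counter and any collapsing of molecular identifiers: not given in the sources used here. A cell was used if it had 500 counts or more, of which less than 20% were mitochondrial, so 10 of 7400 were dropped. No doublets were removed. Sums per library went into the quasi-likelihood F test of edgeR 4.0.16 (R 4.3.3; TMM factors; adjusted p under 0.05), with DESeq2 1.42.0 as an alternative. The SE of a log2 fold is its size divided by √F. Splits of cells within libraries used cells thinned to 1000 counts, summed per library and side of the split, with library as a block and an interaction for the population. CPM are counts scaled to each library's total. Lengths and copies come from GENCODE M21, and 95.4% of tested genes had a length. Intervals are exact at 95% and cover counting error only. Named genes are all members with a row and, per other list, those of the largest changes among called genes with at least 50 CPM, of which some are left out. The members and lists were chosen with earlier results of these data known.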

Additional observations from a re-analysis of the deposited data

How the results depend on the processing

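Of the 15 genes called, 6 kept their call under every alternative that tested them. Hk1, Pgk1, Eno1, Ldha and Pdha1 were tested under all 14. Egln3, the last of the 6, was left out by the filter of 50 CPM and tested under the others. DESeq2 called 6 of the glycolysis and hypoxia genes higher and 1 lower, with 364 higher and 370 lower of all genes, and the cause was not tested. With length and GC offsets 8 were higher and 3 lower. Leaving out each library in turn gave 6 to 9 higher and 5 to 6 lower, and 6 of the 15 called genes lost their call without some 1 library. Pgls, the lactonase of the pentose phosphate branch, changed sign with the offsets, from −0.24 to 0.0017 (edgeR adjusted p = 0.99), and the cause was not tested. In the epithelial to mesenchymal split 0 of the genes were lower in the main setting, 2 with all counts and no thinning (Car9, −1.28, adjusted p = 1.74e-05, and Ero1l, −0.46, 0.0494) and 1 between the outer parts of 3 (Ero1l, −0.77, 0.0377). Libraries were numbered in the order of their labels, and the column names number them otherwise. Deviations of same-numbered libraries correlated at 0.0197 over 7595 genes, which does not settle whether any libraries pair. With this library number as a block 8 genes were higher and 8 lower, Pkm being added (−0.12, edgeR adjusted p = 0.0167). Genes with few counts carry the widest errors, with an SE of 0.29 for Pfkm and 0.27 for Egln3. Those of Slc2a1 (0.25) and Car9 (0.22) are wide too.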
